A study of Mus musculus with 9 samples.

Results

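Cytosolic ribosomal protein genes encode the proteins of the large (Rpl) and small (Rps) subunits of the ribosome that translates nuclear-encoded messages. Here they were taken as the gene rows with an Rpl or Rps number, an Rplp number or the symbol Rpsa, without pseudogene (-ps), binding-protein, S6 kinase and Rpl7l1 symbols, at a mean of at least 10 FPKM over the 9 libraries. FPKM counts the sequenced fragments of a gene per length of its transcript and scales it to the mapped fragments of the library. Of 89 symbols that fitted the name rule 77 were at or above that level, out of 32114 genes in the table, with 44 large and 33 small subunit symbols. They covered 71 of the 79 standard ribosomal protein genes and held 6 further rows, Rpl22l1, Rps27l, Rps4l, Rps27rt, Rpl37rt and Rpl6l. Just inside the level stood Rpl13a with a mean of 11.9 FPKM and Rps18 with 11.01 FPKM, and just outside it Rps2 with 8.60 FPKM and Rpl34 with 8.17 FPKM. The standard genes Rpl35a, Rpl29, Rpl24 and Rpl21 were further below, at 6.10 to 1.75 FPKM.

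The libraries were poly-A enriched RNA-seq of mouse lung at 12 weeks of age, with 3 libraries in each of 3 groups. One group received bacterial lipopolysaccharide (LPS, the membrane component of Gram-negative bacteria that starts an acute lung inflammation) at 50 µg per mouse together with inhaled PD at 10 mg/mL; PD stands here for the panaxadiol that the series is titled after. Another received the same LPS alone, and the control group received sterile saline. The labels state neither the strain, nor the route and time of LPS, nor which of the 6 mice of a group gave each library, so the p-values measure the spread between these libraries. Lung was seen in the markers, with alveolar type 2 genes at a summed 3329 to 14510 FPKM in every library. The label of female mice stood against the transcripts: the Y-linked genes Ddx3y and Eif2s3y were expressed in all 9 libraries.

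Ribosomal protein messages are among the most abundant of a cell, and the proteins are needed in equal numbers because each sits once in a ribosome, apart from the stalk proteins Rplp1 and Rplp2. Their messages start with a C followed by a run of pyrimidines at the cap (the TOP element), through which mTOR, the growth-regulating kinase, and the binding protein Larp1 set their translation. The genes have few and short exons and have left many processed pseudogenes in mammalian genomes. A read that fits a gene and its copies may be credited to either.

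The bases around the start sites are shown for 5 of the genes, because the pyrimidine run at the start is the feature by which the family is known. Each window holds the 40 bases before and the 15 bases from the RefSeq start (GRCm38.p6), 5′ to 3′ on the gene's strand, and capitals mark its longest run of C and T within 20 bases of the start. Rps6 (chr4:86857353-86857407, minus strand), Rpl38 (chr11:114668540-114668594, plus strand) and Rpl4 (chr9:64173347-64173401, plus strand) have long runs, and Rps28 (chr17:33824548-33824602, minus strand) and Rpl41 (chr10:128549154-128549208, minus strand) have short ones.
Rps6: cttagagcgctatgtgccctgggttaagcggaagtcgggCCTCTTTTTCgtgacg
Rpl38: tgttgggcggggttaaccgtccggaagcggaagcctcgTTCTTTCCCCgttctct
Rpl4: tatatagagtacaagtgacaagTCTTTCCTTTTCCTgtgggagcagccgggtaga
Rps28: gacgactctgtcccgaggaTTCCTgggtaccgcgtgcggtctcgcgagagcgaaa
Rpl41: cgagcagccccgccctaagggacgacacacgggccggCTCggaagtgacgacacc

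A promoter entry was matched for 57 of the 77 genes by symbol. A run of at least 8 pyrimidines within 20 bases of the start was found in 27 of them (47.4%), against 15.9% of all 27025 promoters in the table. The letters CCGGAAG, searched on both strands from 250 bases before to 50 bases after the start, were in 23 of the 57 (40.4%) and in 9.12% of all promoters. AAGATGG was in 12.3% against 6.48%, and TATAAA in 8.77% against 14.2%, searched in the same way. These are matches of letters, and listed starts can differ from the starts used in lung. Of the genes shown, Rpl38 with a long run and Rps28 and Rpl41 with short ones were among the 5 members with the lowest LPS difference.

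The depth, read from the steps of the FPKM values, lay between 15.2 M and 19.2 M reads per library. The median level of the members was 7.55, 7.87 and 7.61 on the log2(FPKM + 1) scale in the controls, where the median of all tested genes was 2.71 to 2.73. Members were chosen for a mean of at least 10 FPKM over these libraries. A median above that of all tested genes was therefore built into the choice. LPS library 2 stood apart from the rest: its highest correlation with any other library was 0.914, while every other library reached at least 0.971 with another. It also had the lowest sum over the 77 genes.

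The members spanned a wide range of levels. The highest mean over 9 libraries was that of Rplp1 at 1435 FPKM, the acidic stalk protein through which elongation factors are recruited. It was followed by Rps3a1 at 855 FPKM, Rps15 at 643 FPKM, Rpl41, the shortest of the proteins with 25 codons, at 566 FPKM, and Rpl36 at 565 FPKM. The lowest were Rpl22l1 at 23.2 FPKM, Rpl26 at 20.1 FPKM, Rps4l at 12.7 FPKM, Rpl13a and Rps18. The low row of Rpl26 has a copy row with more signal.

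Together the 77 genes were lower with LPS. Their summed level was 14282, 11878 and 16974 FPKM in the LPS libraries, against 18495, 23552 and 20659 FPKM in the controls. The highest LPS library was below the lowest control. In the LPS plus PD libraries the sum was 13825, 15051 and 20373 FPKM, so that libraries 1 and 2 lay within the range of LPS and library 3 above it and inside the range of the controls. As a share of the summed FPKM of the library the genes held 4.34, 4.49 and 5.64% in LPS plus PD, 4.22, 3.71 and 4.99% in LPS and 5.07, 5.67 and 5.60% in controls. In bulk tissue fewer cells of a type and less RNA per cell cannot be told apart.

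**Figure D1:**
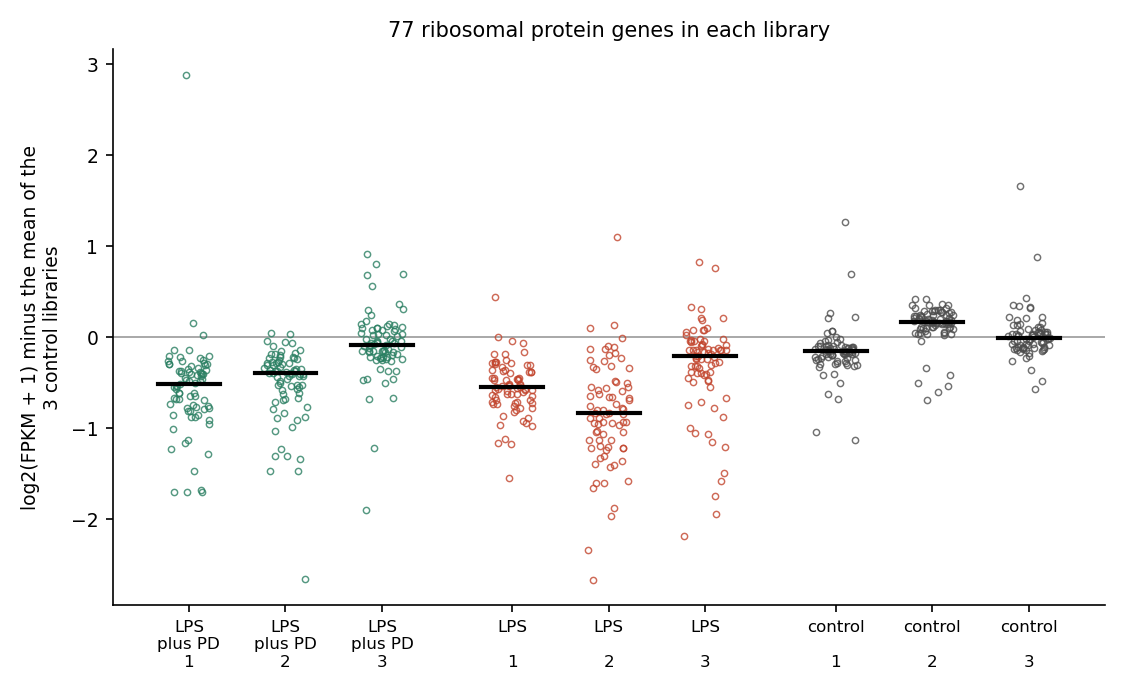
Each point is 1 of the 77 genes in 1 library, as log2(FPKM + 1) minus the mean of the 3 control libraries, with the libraries of LPS plus PD, LPS and control from left to right and a black bar at the median. The medians are -0.51, -0.40 and -0.08 in LPS plus PD, -0.55, -0.83 and -0.21 in LPS and -0.16, 0.17 and -0.01 in controls, so the shift is shared by most genes and its size differs by library.

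With LPS against control, 76 of the 77 genes had a difference below 0, where 60.1% of all 16227 tested genes (mean of at least 0.5 FPKM) did. The members' median log2 difference was -0.50, against -0.11 over all tested genes, and 74 of the 77 lay below that median, as 50% of all genes do. None of the members passed limma's test at an adjusted p of 0.05, which 3.78% of all genes did (613 genes). The smallest adjusted p of a member in limma was 0.0521, for Rps26. At an unadjusted p under 0.05 there were 31 members, all of them lower, and 19.5% of all genes were lower at that p. The 3 LPS libraries lay below the 3 controls for 40 members and above them for 0, while 23.8% of all genes lay below and 13.8% above. By subunit the medians were -0.56 for the large and -0.49 for the small subunit symbols.

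The count of 0 held under 18 of 19 other settings. Of these, taking only members at a mean of at least 50 FPKM is a subset of the main fit and could add no call. Without LPS library 3, which had the highest summed level of that group, 5 members passed the test as lower (Rpl35, Rps26, Rps10, Rpl18 and Rpl28, adjusted p 0.0372 to 0.0496 in limma). In that setting 723 of all 16227 genes passed as lower, more than the 413 with all 9 libraries. With LPS library 3 left out, 50 members were at an unadjusted p under 0.05, all of them lower. They numbered 19 without LPS library 1, 14 without LPS library 2, 9 without control library 2 and 20 without control library 3. In the same order, 5603, 4554, 4070, 2923 and 3817 of all 16227 genes were at that p in either direction. The members' median was -0.38 without LPS library 2 and -0.70 to -0.38 over all libraries left out in turn. Rescaling moved the median of all genes by over 0.1, to 0.00 with median-ratio scaling and 0.04 with equal totals. Relative to that median, 74 members were lower under each of the 4 rescalings, and the members' median was -0.36 and -0.31 under those 2.

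The members with the lowest differences mostly encode very short proteins. Rps28, a small subunit protein of 69 codons near the mRNA exit, was at 33.8, 11.3 and 19.2 FPKM in LPS lungs, against 49.5, 103 and 88.8 FPKM in controls. The groups did not overlap. The log2 difference was -1.92 ± 0.63 (SE), with an adjusted p of 0.0973 in limma. With the copy rows of Rps28 summed in, it was -0.81 ± 0.29. Rpl38, a large subunit protein of 70 codons needed in mice for the translation of a set of Hox messages, stood at 234, 83.3 and 151 FPKM in LPS lungs and at 341, 522 and 435 FPKM in controls. Its difference was -1.56 ± 0.53, with an adjusted p of 0.102 in limma. Rps21, of 83 codons, had 159, 82.7 and 102 FPKM in LPS lungs, against 246, 366 and 318 FPKM in controls. The difference was -1.46 ± 0.44, with an adjusted p of 0.0808 in limma, and again the groups were apart. Rpl41 was at 413, 207 and 392 FPKM with LPS and at 680, 983 and 805 FPKM in controls, a difference of -1.33 ± 0.40. Rpl26, which in human cells also binds the p53 message, differed by -1.77 ± 1.31, and by -0.94 without control library 3. Its row had a mean of 20.1 FPKM, and that of a copy 967 FPKM.

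At the other end stood Rpl3, Rpsa, Rps27a and Rpl30. Rpl3, of 403 codons beside the peptidyl transferase centre, was at 89.0, 111 and 96.0 FPKM in LPS lungs and 88.5, 110 and 107 FPKM in controls, and the groups overlapped. Its difference was -0.04 ± 0.17. Rpsa, a small subunit protein also known as the laminin receptor precursor, was at 184, 238 and 253 FPKM with LPS and at 180, 248 and 307 FPKM in controls, with a difference of -0.10 ± 0.31. With its copy rows summed in, Rpsa differed by -0.87 ± 0.26. Rps27a, made as a fusion with ubiquitin, differed by -0.16 ± 0.51, and by 0.38 without LPS library 2. The value of Rpl3 without that library was -0.13. Rpl30 was the 1 member with a positive difference, 0.37 ± 0.79, which was 0.0042 without LPS library 2 and 1.003 without control library 1. Its row held 16.7, 66.1 and 54.3 FPKM with LPS and 73.9, 18.3 and 19.95 FPKM in controls, and the groups overlapped. The differences of Rpl3, Rpsa and Rps27a changed sign under some rescalings, as did that of Rps4x, and that of Rpl30 did with its copies summed.

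The stalk and the S6 kinase target were in between. Rplp0, which anchors the stalk, was at 361, 414 and 465 FPKM in LPS lungs and at 527, 800 and 562 FPKM in controls. The groups did not overlap, with a log2 difference of -0.59 ± 0.21 and an adjusted p of 0.116 in limma. Rplp1 and Rplp2, its partners, differed by -0.63 ± 0.37 and -0.68 ± 0.30, and for both LPS library 3 lay within the range of the controls. Without LPS library 2 they differed by -0.34 and -0.42, and without LPS library 3 Rplp1 differed by -0.99. Rps6, whose phosphorylation by S6 kinases is the usual readout of mTOR activity, was at 337, 343 and 337 FPKM in LPS lungs, against 360, 439 and 427 FPKM in controls, with a difference of -0.26 ± 0.17. Rps26 stood at 153, 144 and 203 FPKM in LPS lungs and 249, 321 and 331 FPKM in controls, with a difference of -0.85 ± 0.20.

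**Figure D2:**
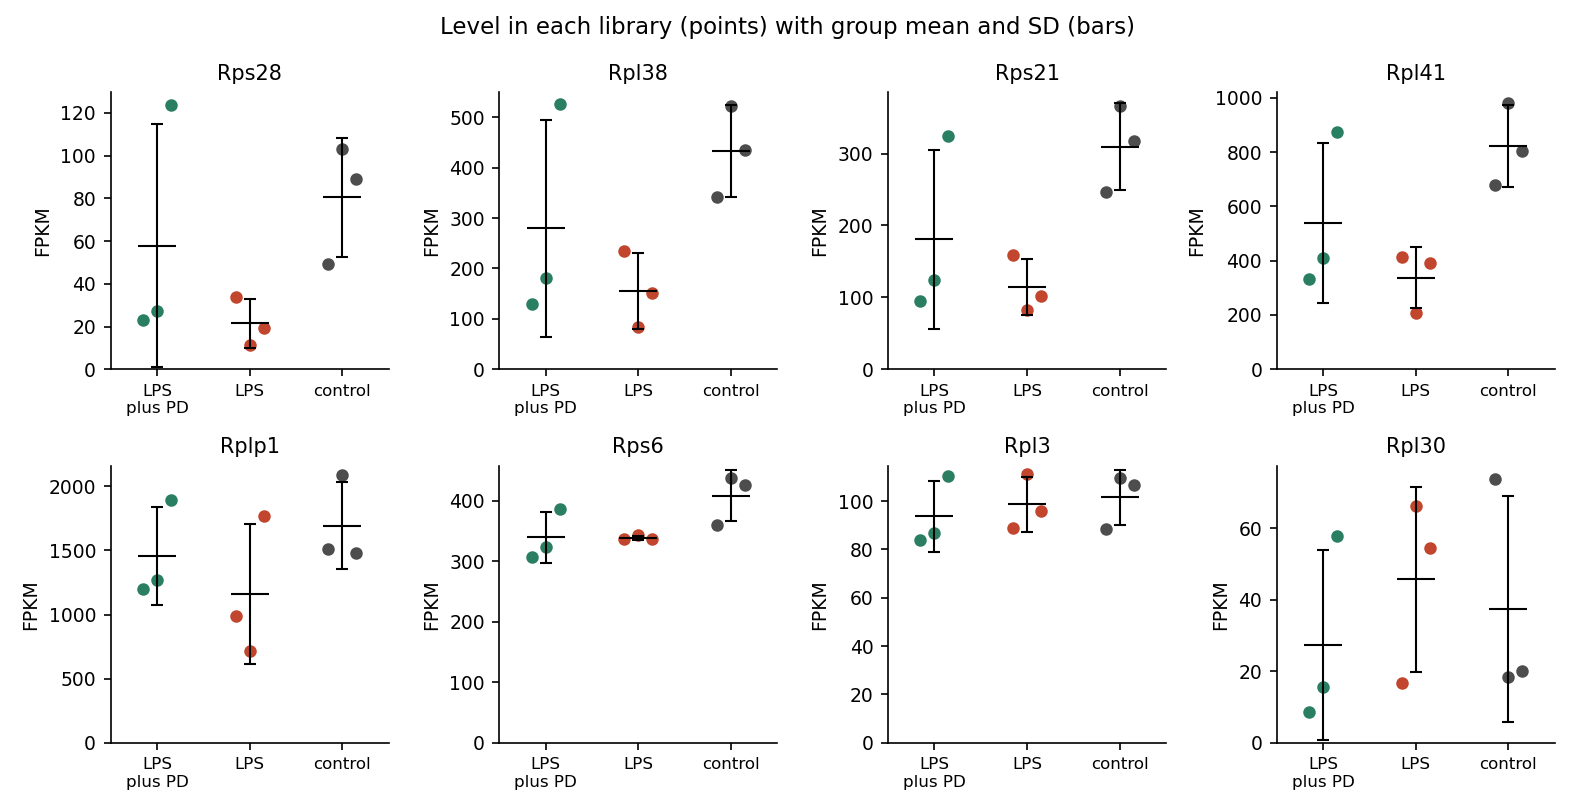
FPKM of 8 genes in each library (points), with the group mean and SD as bars, for LPS plus PD, LPS and control from left to right; each axis starts at 0. Rps28, Rpl38, Rps21 and Rpl41 show LPS libraries below all controls and 1 LPS plus PD library, number 3, within or above the control range, while Rpl3 and Rpl30 overlap in all groups.

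The paralogues among the members had negative differences, several of which moved with single libraries. Rps27l, a paralogue induced by p53 in human and mouse cells, was at 100.5 ± 16.0 FPKM in LPS lungs and 159 ± 21.6 FPKM in controls (SD, n = 3 each), and differed by -0.66 ± 0.21, where Rps27 differed by -0.37 ± 0.52. Rpl22l1 differed by -0.30 ± 0.37 and Rpl22, needed for T cell development in mice, by -0.45 ± 0.17. The X-linked Rps4x differed by -0.18 ± 0.16 and the annotated pseudogene row Rps4l by -0.61 ± 0.40. Rpl10, Rpl36a and Rpl39, also on the X chromosome, differed by -0.30, -0.58 and -0.35, and Rpl9 by -0.39. Without LPS library 2 the differences were -0.23 for Rps4l, -0.21 for Rpl9, -0.60 for Rps27 and 0.09 for Rpl22l1. Without LPS library 3 they were -1.08 for Rps4l, -0.38 for Rpl36a, -0.14 for Rpl39, 0.02 for Rps27 and -0.55 for Rpl22l1, and without control library 2 that of Rpl10 was -0.20. Rpl3l, a striated muscle paralogue of Rpl3, had a mean of 0.399 FPKM over the 9 libraries, Rpl36al 0.461 FPKM and Rpl39l, known from testis, 0.0382 FPKM.

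The difference varied with the size of the gene. Over the 74 members with an annotated coding sequence, the LPS difference and the log2 coding length had a Pearson r of 0.526 and a Spearman rho of 0.446, a description across genes that share libraries and are not independent. The 11 members under 300 coding bases had a median difference of -1.004, and the 11 of 750 bases or more a median of -0.22. Genes that are not ribosomal also had lower medians when short: among other protein-coding genes at a mean of at least 10 FPKM, the median was -0.58 for 179 genes under 300 coding bases and 0.00 for 3708 genes of 750 bases or more. In each of the 5 length ranges the members' median was lower than that of the other genes. By library the short members stood at -0.62, -1.40 and -1.15 against the control mean with LPS, and the long ones of 600 bases or more at -0.45, -0.54 and -0.19. The part of length in the members' lower level was not tested.

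**Figure D3:**
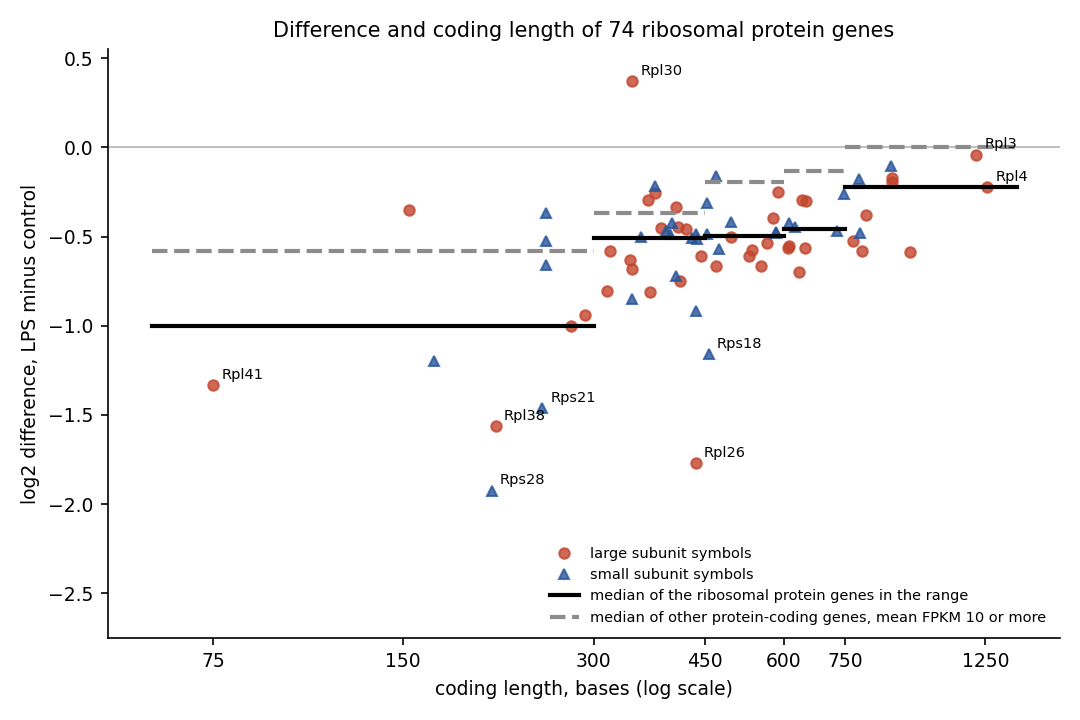
Log2 difference of LPS minus control against coding length in bases on a log scale for 74 ribosomal protein genes (circles for large, triangles for small subunit symbols). Black lines give the members' median in each of 5 length ranges, from -1.004 under 300 bases to -0.22 at 750 bases or more, and dashed grey lines that of other protein-coding genes, from -0.58 to 0.00.

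Other nuclear genes for multi-protein machines also had negative differences. All 43 mitochondrial ribosomal protein genes at a mean of at least 10 FPKM had a difference below 0 with LPS, with a median of -0.43, and 69 of 70 respiratory chain and ATP synthase genes did, with a median of -0.61. The difference between these lists and the cytosolic genes was not tested. Over the 70 respiratory genes the Pearson r with log2 coding length was 0.512 and the Spearman rho 0.610. From the shortest to the longest of the length ranges, the medians of the respiratory genes were -0.97, -0.64, -0.57, -0.54 and -0.22 (21, 21, 11, 4 and 13 genes). Those of the cytosolic members were -1.004, -0.51, -0.49, -0.46 and -0.22.

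Adding PD to LPS gave no gene past the threshold, ribosomal or other (0 of 16227 in limma, 0% of all genes). At an unadjusted p under 0.05 there were 0 members and 653 of all genes (4.02%). The members' median log2 difference between LPS plus PD and LPS was 0.19, against 0.03 over all tested genes, and 56 of 77 were above 0, where 56.1% of all genes were. Of the members only Rpl36, a large subunit protein, had libraries that did not overlap: 520, 520 and 801 FPKM with LPS plus PD, against 453, 255 and 494 FPKM with LPS. Its difference was 0.64 ± 0.31, with an adjusted p of 0.866 in limma, and 3.99% of all genes were higher without overlap. The difference of Rpl36 was 0.34 without LPS library 2.

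Over the 74 members with a coding length, Pearson r between log2 length and this difference was -0.392, with a median of 0.50 under 300 bases and -0.05 at 750 bases or more. Other protein-coding genes at a mean of at least 10 FPKM had medians of 0.27 and 0.04 in these ranges. Over the 70 respiratory chain and ATP synthase genes r was -0.452. Rps28 stood at 23.0, 27.1 and 124 FPKM with LPS plus PD, against 33.8, 11.3 and 19.2 FPKM with LPS, and the high value is that of library 3 alone. The difference was 1.09 ± 0.63. Rpl38 differed by 0.69 ± 0.53 and Rpl37a by 0.71 ± 0.36, with library 3 of LPS plus PD the highest of the 6 for both. Without that library the differences were 0.34 for Rps28, 0.10 for Rpl38 and 0.38 for Rpl37a, and without LPS library 2 they were 0.72, 0.30 and 0.39. Rpl26 had the highest difference, 1.21 ± 1.31, from 1 library at 107 FPKM, and -0.51 without it. The lowest were Rpl30 at -0.94 ± 0.79, Rpsa at -0.38 ± 0.31, Rpl6l at -0.33 ± 0.27 and Rpl17 at -0.28 ± 0.34. With 1 library left out they ranged over -1.68 to -0.37 for Rpl30, -0.70 to -0.22 for Rpsa, -0.59 to -0.18 for Rpl6l and -0.51 to 0.00755 for Rpl17. The members' median of 0.19 was 0.06 without LPS plus PD library 3, 0.04 without LPS library 2 and 0.32 without LPS library 3, so its size depended on single libraries. Without LPS library 3, 18 members were higher at an unadjusted p under 0.05. In that setting 1759 of all 16227 genes were at that p in either direction, against 653 with all 9 libraries.

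**Figure D4:**
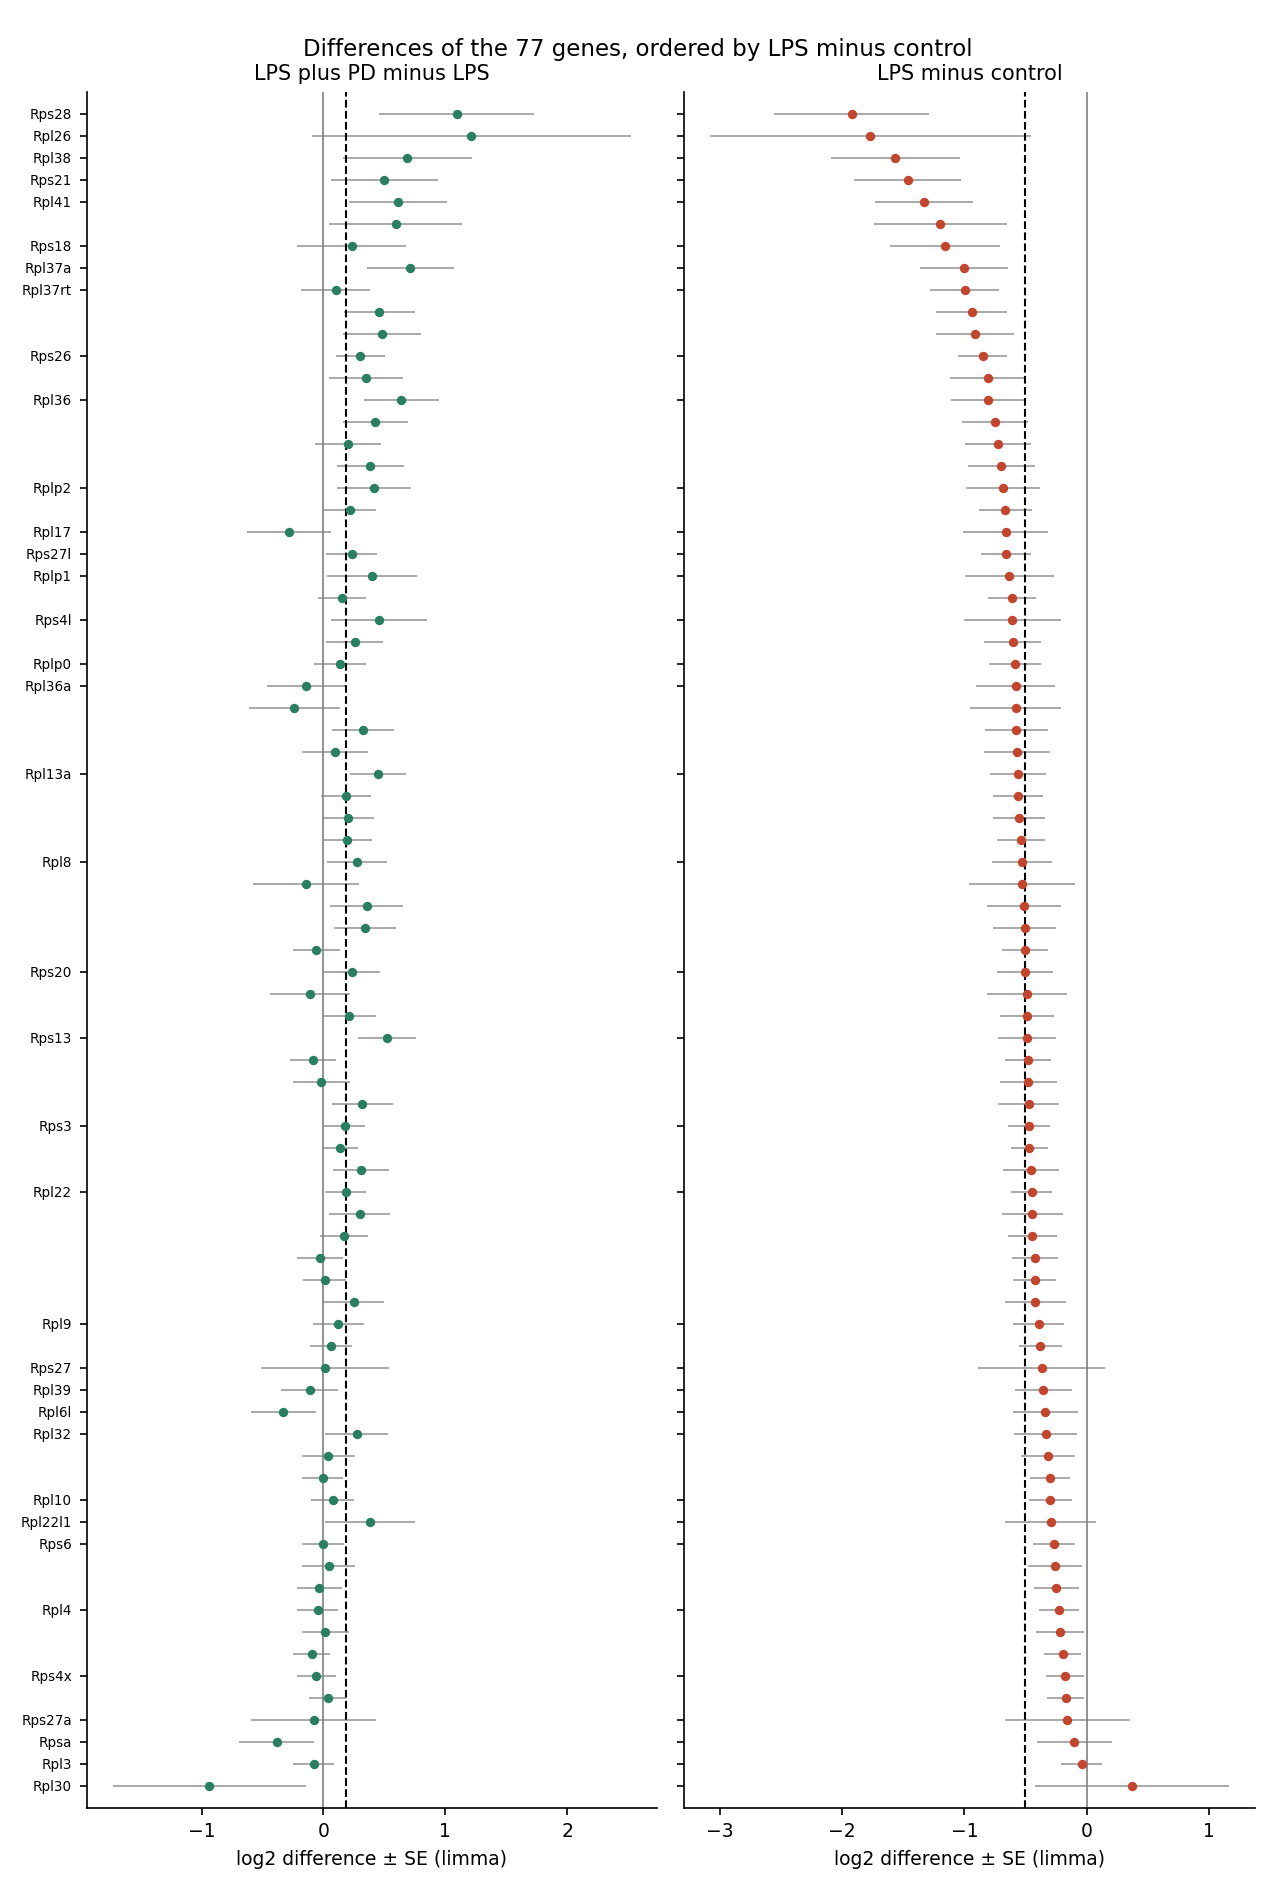
Log2 difference with its standard error from limma for each of the 77 genes, LPS plus PD minus LPS on the left and LPS minus control on the right, ordered by the right panel with the lowest at the top; some of the genes are labelled and the dashed line is the median of the 77. Nearly all genes lie below 0 for LPS minus control; both panels share the LPS libraries.

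For LPS plus PD against control the difference was below 0 for 75 of 77 members, where 58.2% of all genes were below 0, with a median of -0.32 against -0.07 over all genes. None of the members passed the test in limma, which 0.789% of all genes did (128 genes), and 9 members were at an unadjusted p under 0.05, all lower, where 12.5% of all genes were lower at that p. That count was 23 without LPS plus PD library 3, 1 without control library 3 and 3 without control library 2, without LPS plus PD library 1 or without LPS plus PD library 2. It was 14 without LPS library 2 or 3 and 15 without control library 1. The count of all 16227 genes at that p in either direction also moved. It lay between 1746 without control library 2 and 4627 without LPS library 2, with 2918 without LPS plus PD library 3. The libraries were apart, with LPS plus PD lower, for 22 members and 20.7% of all genes. The lowest differences were those of Rps21 at -0.96 ± 0.44, Rpl17 at -0.94 ± 0.34, Rps18 at -0.93 ± 0.45 and Rpl37rt at -0.90 ± 0.28, and the highest those of Rpl22l1 at 0.08 ± 0.37, Rps13 at 0.04 ± 0.24, Rpl32 at -0.06 ± 0.26 and Rpl13a at -0.11 ± 0.23. Rps21 differed by -0.61 without LPS plus PD library 1 and by -1.49 without LPS plus PD library 3, and Rps18 by -1.45 without control library 1 and by -0.49 without control library 3. With their copy rows summed in, Rpl17 differed by -0.22, Rps18 by -0.28 and Rps21 by -0.97. Rps6 was at 308, 324 and 387 FPKM with LPS plus PD, against 360, 439 and 427 FPKM in controls, with a difference of -0.27 ± 0.17. The 2 comparisons with control share the control libraries, and the 2 with LPS share the LPS libraries.

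How reads were shared with copies limits what a single row says. Of 77 standard genes with a ribosomal protein symbol, 71 had copy rows in the table (annotated pseudogenes with at least 10% of the gene's 50-base stretches, and Rps27rt, annotated as protein-coding), 411 rows in all, and for 19 genes the copy rows held more than 50% of the summed FPKM. One of the 19 is Rps27, at 50.4%, where nearly all of the copy signal is that of Rps27rt, itself one of the 77 members. The member rows Rpl37rt and Rpl6l are likewise copy rows, of Rpl37 and Rpl6. Other rows not annotated as pseudogenes were left out of these counts. Among them were Rps12-ps3, with a mean of 335 FPKM and 90.1% of the stretches of Rps12, and Gm11361, with 198 FPKM, for Rps18. Gm2000, at 74.4 FPKM, for Rpl35 and Gm10076, at 48.65 FPKM, for Rpl41 were also left out. The median member shared 57.3% of its 50-base stretches with other annotated transcripts. Rpl34 is the clearest case outside the level used: its gene had a mean of 8.17 FPKM and the row of its pseudogene Rpl34-ps1 a mean of 1239 FPKM. Rps2 was at 8.60 FPKM and Rps2-ps13 at 315 FPKM, and Rpl26 at 20.1 FPKM and its copy Gm15772 at 967 FPKM.

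The sequences show how close these copies are (GENCODE M21, GRCm38; 5′ to 3′ on the sense strand, capitals mark bases that differ between gene and copy). Over 351 coding bases Rpl34 (chromosome 3) and Rpl34-ps1 (chr6:71124610-71124963) differ at 2, over 435 Rpl26 (chromosome 11) and Gm15772 (chr5:3236431-3236868) at 2, and over 879 Rps2 (chromosome 17) and Rps2-ps13 (chrX:52898588-52899469) at 7. Each line holds 60 coding bases, from base 73 for Rpl34, base 118 for Rpl26 and base 25 for Rps2.
Rpl34: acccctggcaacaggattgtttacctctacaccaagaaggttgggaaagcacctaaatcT
Rpl34-ps1: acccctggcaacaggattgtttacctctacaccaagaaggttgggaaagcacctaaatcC
Rpl26: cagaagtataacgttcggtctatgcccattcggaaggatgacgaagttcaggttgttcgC
Gm15772: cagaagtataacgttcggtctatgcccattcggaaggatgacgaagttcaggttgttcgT
Rps2: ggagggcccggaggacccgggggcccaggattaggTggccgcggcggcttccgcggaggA
Rps2-ps13: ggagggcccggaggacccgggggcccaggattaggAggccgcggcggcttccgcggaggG

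The levels of the gene rows and copy rows moved from library to library. Rpl26 was at 107, 1.31 and 2.92 FPKM in LPS plus PD, 3.98, 3.86 and 2.22 FPKM in LPS and 5.67, 9.08 and 44.9 FPKM in controls. Gm15772 in the same order of groups was at 401, 908 and 1078 FPKM in LPS plus PD, 839, 1077 and 981 FPKM in LPS and 993, 1270 and 1156 FPKM in controls. The library with the highest Rpl26 had the lowest Gm15772. For Rpl30 the copy Gm12191 held 310, 390 and 402 FPKM in LPS plus PD, 403, 21.9 and 163 FPKM in LPS and 70.1, 610 and 477 FPKM in controls, and in LPS library 2 and control library 1, where Rpl30 was highest, the copy was lowest.

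**Figure D5:**
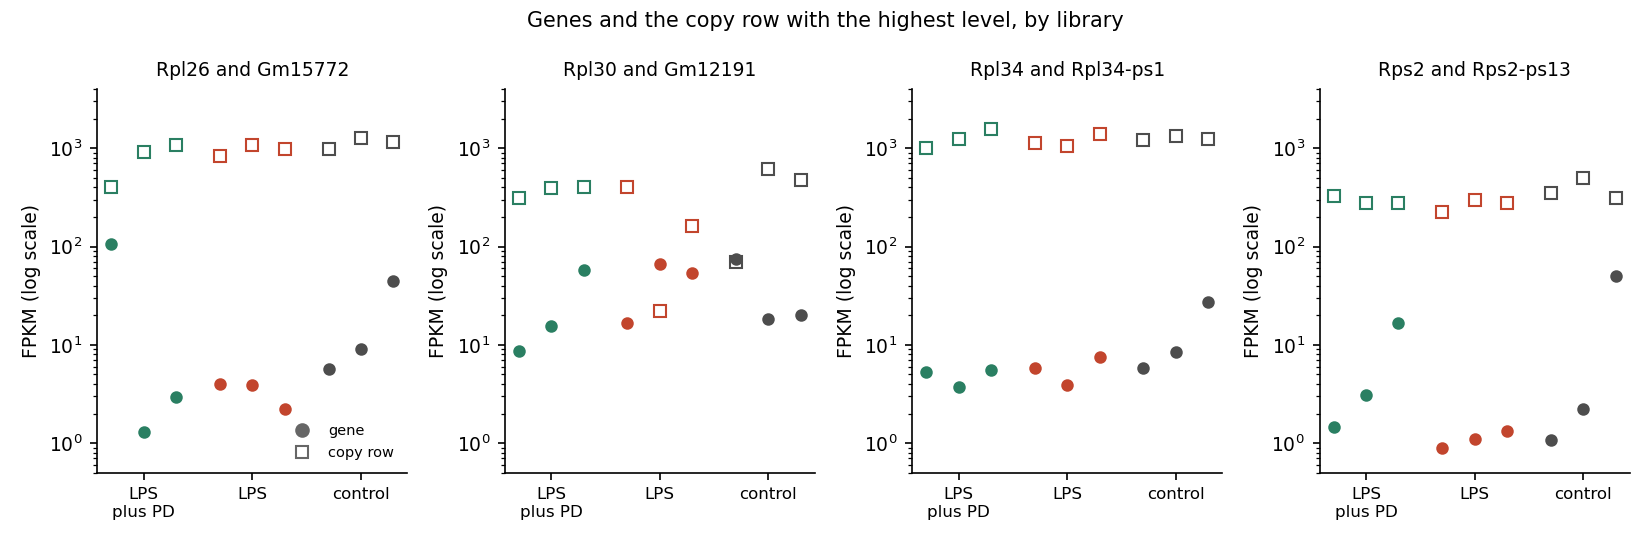
FPKM on a log scale of 4 genes (filled circles) and of the copy row with the highest level (open squares) in each library, for LPS plus PD, LPS and control from left to right. The copy rows stand above the genes in nearly all libraries, and where Rpl30 and Rpl26 are highest their copies are lowest.

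Summing the counted copy rows into their genes left the family's direction as it was. Copies left out by their annotation, such as Rps12-ps3, were not summed. Of the 77 standard genes so summed (71 members and the 6 below the level), 76 were below 0 with LPS against control, with a median of -0.50 and 0 past the threshold in limma (31 at an unadjusted p under 0.05). In that fit the median of all 16020 genes was -0.11, 674 of them passed and 4841 were at that unadjusted p in either direction. The sums of the 77 genes were 20496, 17408 and 24410 FPKM with LPS, against 26247, 33140.5 and 28749 FPKM in controls. Single genes did move: Rpl30 with its copies differed by -0.89 in place of 0.37, Rpsa by -0.87 in place of -0.10, Rpl26 by -0.26 in place of -1.77 and Rps28 by -0.81 in place of -1.92. Rps3, Rps20 and Rpl8, chosen after their values were seen, are among the members that share under 10% of their stretches with other transcripts. Their differences were -0.47 ± 0.17, -0.50 ± 0.23 and -0.53 ± 0.25, and without LPS library 2 those of Rps20 and Rpl8 were -0.28 and -0.32. Rps3 was at 102, 96.9 and 136 FPKM in LPS lungs and 142, 165 and 155 FPKM in controls, without overlap. The 23 members with under 40% shared stretches had a median of -0.53.

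The other genes of translation were read from lists. Of 3 ribosomal protein genes with other symbols none passed the test in limma: Fau, fused to a ubiquitin-like protein, differed by -0.40 and Rack1, a scaffold on the small subunit, by -0.22 with LPS against control. Among 11 elongation and termination factor genes 0 passed, with a median of -0.28, led by Eef2k, the kinase that inhibits Eef2, at -0.77 (adjusted p 0.0639) and Eef1d at -0.57 (adjusted p 0.0731). Among 29 initiation factor genes 0 passed, with a median of 0.02, and Eif4a2 differed by -0.47 and Eif3g by -0.46. Among 9 genes of nascent chain binding and signal recognition 0 passed, with a median of -0.29, and Srp68 differed by -0.39 and Srp14 by -0.59. Without LPS library 2 the differences were -0.25 for Fau, -0.30 for Eif4a2, -0.29 for Eif3g and -0.38 for Srp14, and without control library 2 that of Rack1 was -0.12.

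Ribosome assembly was covered by a further list. Of 38 assembly factor genes 0 passed, 31 had a difference below 0 and the median was -0.18. Nhp2, of the box H/ACA particle, differed by -0.89 ± 0.22 (adjusted p 0.0582 in limma) and Nop56, of the box C/D particle, by -0.65 ± 0.17 (adjusted p 0.0636). Of 17 genes of the RNA polymerase I machinery 0 passed, with a median of -0.24, and Polr1c, a subunit shared by polymerases I and III, differed by -0.72 (adjusted p 0.0554). Of 23 mTOR and TOP message regulator genes 0 passed, with a median of -0.07, and Sesn3 differed by -0.37 and Larp4 by 0.41 (0.245 without LPS library 2). Among 15 genes of ribosome stress and the p53 response 1 was higher with LPS, Cdkn1a, the p21 cell cycle inhibitor. It was at a mean of 132 FPKM in LPS lungs and 40.7 FPKM in controls, with a difference of 1.67 ± 0.36 and an adjusted p of 0.0456 in limma, and it passed in 7 of 18 other settings. In both comparisons of LPS plus PD, 0 genes of these lists passed.

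Cell type markers moved with the groups at the same time. Of 8 neutrophil markers 7 were higher with LPS, and their sum ranged over 1302 to 3983 FPKM in LPS plus PD lungs, 1239 to 4519 FPKM in LPS lungs and 103 to 367 FPKM in controls. S100a8, a neutrophil calcium-binding protein, differed by 3.82 ± 0.68 (adjusted p 0.0347 in limma). Of 7 cardiac muscle markers 5 were lower, with a sum of 145 to 226 FPKM with LPS plus PD, 88.0 to 140 FPKM with LPS and 223 to 953 FPKM in controls, and Myl7, an atrial myosin light chain, differed by -4.30 ± 0.90. Of 6 ciliated cell markers 2 were lower (152 to 210 FPKM summed with LPS plus PD, 60.5 to 183 FPKM with LPS, 386 to 678 FPKM in controls) and of 5 club cell markers 1, Scgb3a2 at -3.60 ± 0.80. With 18 other settings S100a8 passed in 8, Myl7 in 6 and Scgb3a2 in 4. The 13 mitochondrially encoded messages summed to 10120 to 16260 FPKM with LPS plus PD, 16240 to 21560 FPKM with LPS and 27660 to 57360 FPKM in controls, 12 of them with a difference below 0 for LPS against control and 0 past the threshold. In LPS plus PD against control 5 of the 13 were lower, led by mt-Nd4l at -2.76 ± 0.30 (adjusted p 0.0176 in limma), and 3 of the 8 neutrophil markers were higher. No marker of any list was at 0 in all libraries, and B cell, T cell, endothelial and red cell lists had 0 calls with LPS against control. The part of these shifts in the lower ribosomal protein levels was not tested. With rescaling to the total of genes neither mitochondrially encoded nor members, the members' median was -0.41 and that of all genes -0.03. Such rescaling changes only the scale of each library, so it cannot test the part of cell types.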

How the data were processed

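Poly-A enriched RNA of 9 mouse lung samples was measured, 3 per group. The values are FPKM per gene as deposited in 1 table of 32114 genes, with 0 columns of other samples. The submitters' processing notes name HISAT2 and StringTie for alignment and assembly on GRCm38, beside bcl2fastq and FastQC. Versions, settings, strandedness and how multi-mapping reads were counted are not given in the sources used. The members, gene lists and the rule for named genes were chosen with earlier results of these data known. The rule named the 4 highest and 4 lowest differences per comparison, the 5 highest and 5 lowest levels, stalk, ubiquitin-fused and paralogous genes, and per list up to 3 genes past the threshold or the 2 with the smallest p.

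Genes at a mean of at least 0.5 FPKM (16227) were tested as log2(FPKM + 1), which understates the change of low genes, in limma 3.58.1 (R 4.3.3) with 1 mean per group over all 9 libraries, a variance trend and Benjamini-Hochberg adjustment at 0.05. Differences are given with their standard error. The fit was also run on simulated data, with the level and spread of each gene taken from these libraries. There it called 46% of 2-fold and 86% of 4-fold changes for LPS against control, so smaller changes can be missed. Depth was read from the steps of the values: of the values worth under 100 reads, 99.0 to 99.4% per library came to whole reads with a tolerance of 0.05. Lengths, 50-base stretches and copies came from GENCODE M21, with coding lengths of the shortest principal transcript, and promoters from RefSeq; 32025 identifiers matched. The replicate numbers do not pair the libraries. Alternatives were another pseudocount, no filter, rescalings, the 6 libraries compared, the replicate block, members at a mean of at least 50 FPKM and leaving out each library. Summing copies was chosen after seeing the data. Results of some genes are not reported here.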

Additional observations from a re-analysis of the deposited data

How the results depend on the processing

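The direction of the members' median held in all 3 comparisons under the 19 settings, at -0.70 to -0.31 for LPS against control, 0.04 to 0.32 for LPS plus PD against LPS and -0.44 to -0.15 for LPS plus PD against control. Some settings could not move this median, because they leave the members' differences unchanged. They were no filter, the 6 libraries compared, the replicate block and leaving out a library of the group not compared. The number of all genes called was unstable. For LPS against control (613) it was 38 with no filter, 370 with median-ratio scaling, 392 with equal totals, 9 with the 6 libraries compared and 10 with the replicate block, and 7 to 1038 with 1 library left out; members called were 0 to 5. For LPS plus PD against LPS (0) it was 1 with median-ratio scaling and 1 with quantile normalization, and members below 0 (21) were 11 to 35 with 1 library left out. For LPS plus PD against control (128) it was 6 with no filter, 1193 with the 6 libraries compared, 4 with the replicate block and 2 to 1613 with 1 library left out. The block changed no call of a member, and same-numbered libraries correlated between -0.18 and 0.19.

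Uncalled genes changed sign, and not only those near 0. In LPS plus PD against LPS they included Rpl26 at 1.21 and Rpl30 at -0.94 in the main fit. For LPS against control, with median-ratio scaling Rpsa was at 0.04043 and Rpl3 at 0.10, with quantile normalization Rpsa at 0.0389, with equal totals Rps27a at 0.0395, Rpsa at 0.10, Rpl3 at 0.16 and Rps4x at 0.0208, with totals of other genes Rpl3 at 0.0575, and with copies summed Rpl3 at 0.0277 and Rpl30 at -0.89. With copies summed, LPS plus PD against LPS was 0.82 for Rpl30, 0.46 for Rpsa, 0.0296 for Rpl17 and -0.28 for Rpl26, and LPS plus PD against control -0.20 for Rps13. LPS plus PD against control was 0.0517 for Rpl13a and 0.12 for Rpl32 with equal totals, and for Rpl32 0.01932 with median-ratio scaling and 0.005273 with quantile normalization. With 1 library left out, LPS against control ranged over -0.55 to 0.0855 for Rpl22l1, -0.14 to 0.0302 for Rpl3, -0.60 to 0.0195 for Rps27, -0.62 to 0.38 for Rps27a and -0.31 to 0.0764 for Rpsa; LPS plus PD against LPS over -0.51 to 0.00755 for Rpl17 and -0.51 to 2.27 for Rpl26; LPS plus PD against control over -0.32 to 0.0449 for Rpl13a, -0.16 to 0.31 for Rpl22l1, -0.16 to 0.10 for Rpl32 and -0.0348 to 0.11 for Rps13. The causes were not tested.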
